A study of Rattus norvegicus with 54 samples.

Results

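Fmo1, a flavin-containing monooxygenase, and Por, the NADPH-cytochrome P450 reductase, were followed on 54 expression arrays of liver, epididymal adipose tissue and gastrocnemius muscle of rats. They were chosen with Fmo2, Fmo4 and Fmo5 as every probe set that the platform annotation assigns to these 5 symbols, and the annotation assigned probe sets to 2 of the 5. Fmo1 had 1 probe set (1387053_at) and Por had 2 (1368213_at and 1387109_at), among 10411 annotated genes in all. Fmo2, Fmo4 and Fmo5 were not analysed here. All 3 probe sets passed the filter on low values in all 3 tissues, but 1368213_at lay at the 44.3 percentile of probe sets in muscle, close to the limit at the 40th, and the ligand groups carried it past. Its mean signal in muscle was 53.5 in untreated obese and 138 in lean rats, both below the limit of 139, and 159 to 287 in the ligand groups.

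All rats were male Zucker rats. The lean rats carried 1 copy of the fa mutation of the leptin receptor (fa/+) and the obese rats carried it on both chromosomes (fa/fa). Lean rats and untreated obese rats received normal chow, and the other 4 groups were fa/fa rats given pioglitazone, rosiglitazone, troglitazone or AG035029, each of which binds PPARgamma, a nuclear receptor that drives fat cell genes. The first 3 belong to the thiazolidinedione class, and AG035029 is known here by its code name alone. Doses, treatment times and ages are not given in the sources used here, so it is unknown whether the ligands were matched for dose. The 18 arrays of a tissue formed 6 groups of 3, with RNA of 2 rats pooled on each, so p-values measure the spread between pools. The array numbers recur in all 3 tissues, which may come from the same rats, and the labels do not settle this.

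Flavin-containing monooxygenases sit in the membrane of the endoplasmic reticulum and use NADPH and oxygen to oxidise soft nitrogen and sulfur atoms of drugs and diet-derived compounds. They carry their own flavin and need no partner protein. Por, in the same membrane, passes electrons from NADPH through FAD and FMN to every microsomal cytochrome P450, and also to heme oxygenase and squalene epoxidase. In rodents both genes are active in liver, the main organ of drug oxidation.

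The 250 bases before each start site are shown because they are the stretch in which the short motifs given next were looked for; they come from RefSeq (build GRCr8). Both genes lie on the minus strand, Fmo1 at chr13:77747667-77747916 and Por at chr12:26635810-26636059. Capitals mark AGGTCA, the hexamer that nuclear receptors bind, with its common variants GGGTCA (also read by them) and, likewise, AGTTCA, and the core of the xenobiotic response element, GCGTG, all on either strand.
Fmo1: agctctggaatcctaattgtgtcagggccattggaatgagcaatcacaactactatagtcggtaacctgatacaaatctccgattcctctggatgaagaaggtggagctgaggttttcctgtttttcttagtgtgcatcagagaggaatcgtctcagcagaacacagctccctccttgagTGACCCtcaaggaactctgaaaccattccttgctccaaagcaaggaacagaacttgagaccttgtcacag
Por: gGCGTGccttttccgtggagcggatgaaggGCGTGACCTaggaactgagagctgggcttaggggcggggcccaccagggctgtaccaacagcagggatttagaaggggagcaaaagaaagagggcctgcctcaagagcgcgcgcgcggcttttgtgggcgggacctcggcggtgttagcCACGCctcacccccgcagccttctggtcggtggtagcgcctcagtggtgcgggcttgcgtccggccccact
The Fmo1 stretch held 1 GGGTCA on the reverse strand, 70 bases before the start, a motif found in 11.9% of 33469 rat promoters of the same length. The Por stretch held 1 AGGTCA on the reverse strand, 217 bases before the start (14.1% of promoters), and GCGTG at 3 places, 249, 220 and 71 bases before it (25.9%). The AGGTCA and the GCGTG at 220 overlap. Neither stretch held TATAAA (12.9%) or a direct repeat of AGGTCA spaced by 1 base (0.0508%). GC content was 46.4% for Fmo1 and 66% for Por, against a median of 51.2%. These matches describe the letters alone.

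Values are MAS5 signals, a linear measure of probe set brightness that the authors scaled to the same trimmed mean on every array. Differences are on the log2(signal + 20) scale with their standard error, and adjusted p-values are from limma with Benjamini-Hochberg adjustment over 9519 probe sets per tissue and a threshold of 0.05. That scale understates changes of low signals. Median signals of the arrays ran from 205 to 248 in adipose tissue, 201 to 248 in liver and 191 to 232 in muscle, and the ratio of 3' to 5' actin signal, a mark of RNA quality, ran from 1.01 to 1.91, 1.43 to 3.52 and 1.26 to 2.11. Hepatocyte markers summed to at least 225314 on every liver array and at most 10127 on any array of the other tissues. Muscle fibre markers summed to at least 284527 in muscle and at most 32039 elsewhere, on a troglitazone liver array. In liver they ran from 11543 to 32039 with troglitazone and from 10865 to 11640 in untreated obese rats. Adipocyte markers summed to 32880 to 48578 in adipose tissue and to at most 1215 in liver, but to 6621 to 36775 in muscle, where the highest sum lay within the range of adipose tissue. In whole tissue, fewer cells of a type and less RNA per cell cannot be told apart.

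**Figure D1:**
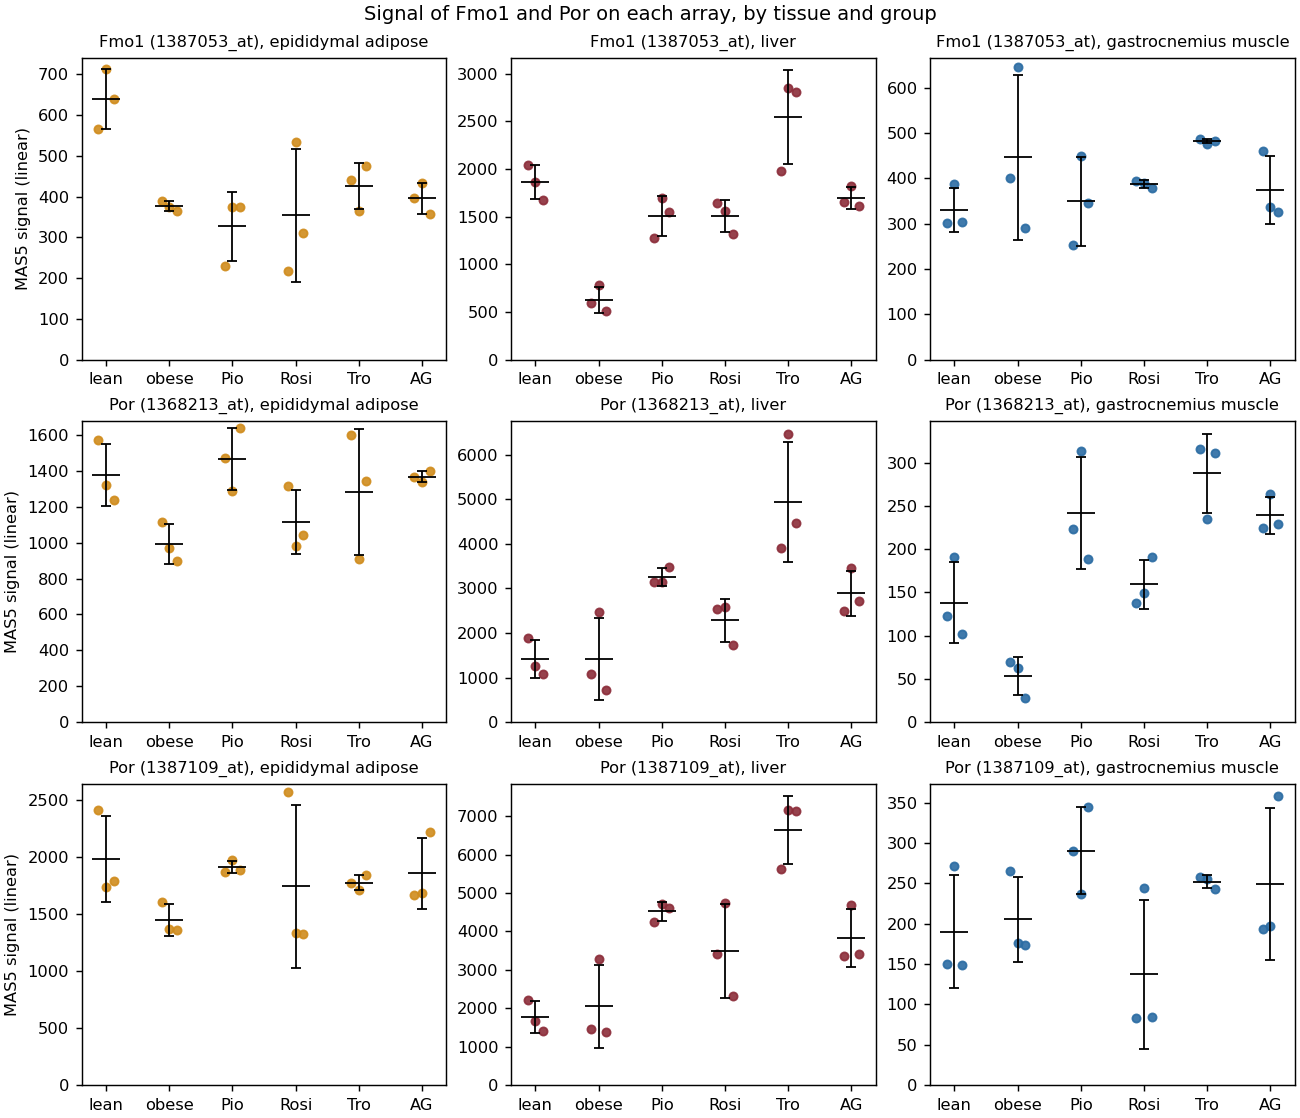
MAS5 signal (linear axis from 0) of Fmo1 and both Por probe sets on each array, in columns by tissue, for lean, untreated obese and the 4 ligand groups (named by their first letters). Points are arrays, horizontal bars are means and error bars SDs of 3 arrays; Fmo1 in untreated obese liver lies between 512 and 781, below every other liver array.

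In lean rats Fmo1 signal was highest in liver, lower in adipose tissue and lowest in muscle. The lean liver arrays read 2039, 1868 and 1678, the adipose arrays 566, 714 and 640, and the muscle arrays 301, 386 and 304. No 2 tissues overlapped, as in 29.6% of probe sets. Liver exceeded adipose tissue by 1.51 ± 0.23 in log2 (adjusted p = 3.06e-07, limma, 54 arrays fitted together) and muscle by 2.43 ± 0.23 (1.49e-12), and muscle lay below adipose tissue (-0.92 ± 0.23, 7.30e-04). Tissue differences in lean rats were common, as 76.4% of 11520 probe sets passed the test over the 3 tissues.

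Por signal in lean rats was lowest in muscle, and liver and adipose tissue did not differ past the threshold. For 1387109_at the lean liver arrays read 2215, 1663 and 1415, the adipose arrays 2417, 1742 and 1790, and the muscle arrays 150, 271 and 149. Muscle lay below adipose tissue by -3.29 ± 0.29 with this probe set (adjusted p = 4.10e-13, limma) and by -3.17 ± 0.27 with 1368213_at (1.41e-13). Liver minus adipose tissue was -0.18 (95% interval -0.76 to 0.41) and 0.01 (-0.54 to 0.55), which did not pass.

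Fmo1 in liver was the value that singled these genes out: among the probe sets tested, it was the 1 called for all 4 ligands against untreated obese rats, and its liver values are described without a test for that reason. The untreated obese arrays read 589, 781 and 512, below all 15 others. Pioglitazone arrays read 1277, 1691 and 1544. Rosiglitazone arrays read 1647, 1559 and 1319. Troglitazone arrays, the highest, read 1980, 2847 and 2812, and AG035029 arrays 1655, 1826 and 1609. The log2 differences from untreated obese liver were 1.25, 1.26, 1.99 and 1.43 in that order. Obese liver stood at 0.337 of the lean mean, a log2 difference of -1.56, and the mean of the ligand groups lay -0.08 from lean. Just outside the rule, Obp3, an odorant-binding protein gene, was called for 3 ligands, with -2.98 for pioglitazone, -2.64 for troglitazone, -3.63 for AG035029 and -0.12, not called, for rosiglitazone. The 4 comparisons share the same 3 untreated arrays. Beside these values, the summed signal of 9 macrophage markers was 5828 to 8632 in lean and 5381 to 5788 in untreated obese liver. With pioglitazone it was 6658 to 7921, with rosiglitazone 5811 to 7923, with troglitazone 5597 to 6318 and with AG035029 6864 to 7115. Of these markers 3 were lower on every untreated obese array than on every lean one, and 0 were higher on every ligand array than on every untreated obese one. Separation of 3 liver arrays from 3 was common, as for pioglitazone against untreated obese arrays (13.2% of probe sets). The ligand count sets 12 arrays against 3, so that share does not apply to it. The shares for the comparisons counted here are not given, so the counts are descriptions. Hepatocyte markers summed to 338511 to 347942 in lean and 335867 to 384149 in untreated obese liver. With pioglitazone they summed to 311513 to 373741, with rosiglitazone 225314 to 359002, with troglitazone 262653 to 321312 and with AG035029 321265 to 353899. No marker of either list was at 0, and their part in the Fmo1 values was not tested.

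Among the ligands themselves, Fmo1 in liver is also described without a test, since the same arrays chose it. Troglitazone exceeded pioglitazone by 0.74, rosiglitazone by 0.73 and AG035029 by 0.56 on the log2 scale. Over the values that could be tested, 6 ligand pairs were compared per tissue, and 0 of 12 values passed in liver (the Por probe sets), 0 of 18 in adipose tissue and 0 of 18 in muscle (4, 1 and 4 at an unadjusted p under 0.05, limma). Rosiglitazone against troglitazone passed for 0.0105% of probe sets in liver. For any pair at most 2 of 9519 probe sets passed in liver, 4 in adipose tissue and 2 in muscle. An unadjusted p under 0.05 was reached by 4.18 to 7.53% of probe sets in liver, 5.82 to 9.63% in adipose tissue and 7.09 to 9.87% in muscle. These counts do not show that the ligands act alike.

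Fmo1 in adipose tissue had lower mean signals in the obese groups, with and without a ligand, than in lean rats. Whether this course differed from that in liver was not tested. Lean arrays read 566, 714 and 640 and untreated obese arrays 389, 374 and 365, without overlap, as in 27.9% of probe sets, and the 12 ligand arrays ran from 216 over a median of 376 to 534. The mean of the ligand groups lay below lean by -0.77 ± 0.18 (adjusted p = 0.00329, limma; 35.5% of probe sets passed in this comparison) and stayed below it past the threshold under all 28 alternatives, with -0.85 to -0.66 and adjusted p from 1.73e-04 to 0.0275. Among single ligands, troglitazone minus lean did not pass for Fmo1 (arrays 442, 364 and 474), where 2585 of 9519 probe sets passed. Untreated obese minus lean was -0.73 ± 0.23 (adjusted p = 0.0705) and did not pass, in a comparison in which 6.02% of probe sets passed. Ligand mean minus untreated obese was -0.04 (95% interval -0.43 to 0.34, adjusted p = 0.902). Beside this, the summed signal of 5 endothelial markers was 5207 to 6627 in lean and 3972 to 4352 in untreated obese adipose tissue, with 3047 to 5041 over the ligand groups. The 9 macrophage markers summed to 10291 to 11561 in lean, 16774 to 17528 in untreated obese and 8726 to 14387 in ligand arrays. The 3 mesothelial markers summed to 2354 to 5172, 1458 to 3594 and 963 to 2732. No marker was at 0, and their part in the Fmo1 values was not tested.

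In muscle Fmo1 did not pass any comparison. Lean arrays read 301, 386 and 304, untreated obese arrays 401, 646 and 291, and the 12 ligand arrays 253 to 486 with a median of 392. Obese minus lean was 0.35 ± 0.25 (95% interval -0.17 to 0.87) and ligand mean minus untreated obese -0.11 ± 0.20 (-0.52 to 0.30), with adjusted p = 0.997 and 0.950 from limma. In untreated obese rats Fmo1 read 512 to 781 in liver and 291 to 646 in muscle. The liver arrays chose the gene, so these values are a description without a test.

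Por in liver was higher in the ligand groups than in untreated obese and in lean rats. With 1368213_at, lean arrays read 1893, 1266 and 1082 and untreated obese arrays 1073, 2467 and 731. Pioglitazone arrays read 3137, 3146 and 3480, rosiglitazone arrays 2541, 2582 and 1724, troglitazone arrays 3899, 6461 and 4463 and AG035029 arrays 2501, 3461 and 2712. One untreated obese array, replicate 2, stood among the rosiglitazone arrays and far above the other 2, and all troglitazone, pioglitazone and AG035029 arrays lay above all untreated ones. Pioglitazone, troglitazone and AG035029 arrays stood apart from untreated obese arrays in 13.2, 14.5 and 13.6% of probe sets. With 1387109_at the same array read 3289 against 1465 and 1387 in its group, and troglitazone arrays read 5619, 7155 and 7145.

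The mean of the ligand groups exceeded untreated obese liver by 1.33 ± 0.25 with 1368213_at and by 1.22 ± 0.22 with 1387109_at (adjusted p = 0.0135 and 0.0110, limma, 12 against 3 arrays), where 0.494% of probe sets passed. Troglitazone exceeded it by 1.93 ± 0.31 and 1.80 ± 0.28 (0.00449 and 0.00366), where 0.662% passed. Pioglitazone (1.37 and 1.25), AG035029 (1.18 and 0.99) and rosiglitazone (0.84 and 0.82) did not pass, with adjusted p from 0.137 to 0.386. Few probe sets passed for these ligands (0.021, 0.2 and 0.063%). Untreated obese minus lean was -0.14 ± 0.31 and 0.12 ± 0.28 (adjusted p = 0.946 for both), in a comparison in which 0.672% of probe sets passed. Against lean liver the ligand mean was higher by 1.19 ± 0.25 and 1.33 ± 0.22 (0.00827 and 0.00124), where 3.18% of probe sets passed.

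The Por call for the ligand mean in liver depended on the untreated obese arrays. Without obese replicate 1 the difference was 1.22 and 1.04 (adjusted p = 0.116 and 0.122), and without replicate 3 it was 0.95 with the first probe set (0.156; 0.124 with the second). Without the high replicate 2 it was 1.82 and 1.61 (2.33e-04 and 4.95e-04). Obese replicate 3 and rosiglitazone replicate 2 had the actin ratios above 3 (3.52 and 3.27), and without both the difference was 0.93 with each probe set (0.176 and 0.115). Over all 29 alternatives the adjusted p ran from 2.33e-04 to 0.176 and from 4.95e-04 to 0.124. The troglitazone difference passed in all 29 with 1387109_at and in 28 with 1368213_at, the exception being a fit of only the arrays compared (adjusted p = 0.0555), and without the arrays of high actin ratio it was 1.56 and 1.58 (0.0357 and 0.0208). Against lean, the call of 1368213_at was lost without lean replicate 2 or 3 (0.0786 and 0.0758).

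**Figure D2:**
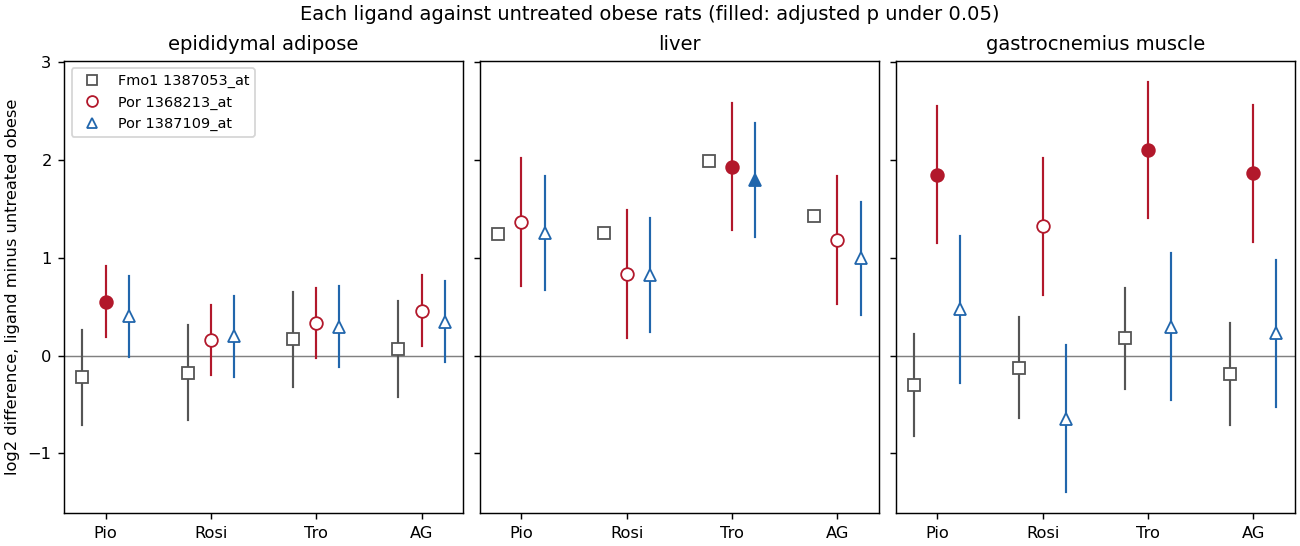
Log2 difference of each ligand group from untreated obese rats in 3 tissues, for Fmo1 (squares) and the Por probe sets 1368213_at (circles) and 1387109_at (triangles); lines are 95% intervals from limma, and filled symbols passed an adjusted p of 0.05. Fmo1 in liver is drawn without an interval because it was chosen on these values, and troglitazone gave the highest liver values of all 3 probe sets (1.99, 1.93 and 1.80).

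Between ligands, Por in liver did not pass (adjusted p = 0.686 and 0.647 over the 4 ligands, limma). Rosiglitazone lay below troglitazone by -1.10 (95% interval -1.75 to -0.45) and -0.97 (-1.56 to -0.39), each with an adjusted p of 0.619 and without overlap of arrays, as in 8.9% of probe sets. Troglitazone minus AG035029 was 0.75 (0.10 to 1.40) and 0.80 (0.22 to 1.38).

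In adipose tissue Por differences were small. With 1368213_at, untreated obese arrays read 1115, 968 and 895 and pioglitazone arrays 1471, 1289 and 1638, a difference of 0.55 ± 0.17 (adjusted p = 0.0372, limma, where 14.5% of probe sets passed). These groups did not overlap, as in 38% of probe sets. That call was lost without obese replicate 2 or 3 (0.54 and 0.48), without pioglitazone replicate 1 or 3 (0.55 and 0.47) and without the filter on low values, with adjusted p from 0.0048 to 0.129 over 28 alternatives. The ligand mean (0.38 ± 0.14, adjusted p = 0.0571; 20.6% passed) and the other 3 ligands did not pass, and 1387109_at passed for none (ligand mean 0.31 ± 0.16, 0.168). Obese minus lean was -0.46 ± 0.17 and -0.44 ± 0.20 (0.119 and 0.213), where 6.02% of probe sets passed. Lean and untreated obese arrays did not overlap with either probe set, as in 27.9% of probe sets.

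In muscle the Por probe sets disagreed. With 1368213_at, lean arrays read 122, 190 and 102, and untreated obese arrays, the lowest, 69.5, 62.6 and 28.5. All 12 ligand arrays lay above these, from 138 over a median of 227 to 316, a separation seen in 0.704% of probe sets. The ligand mean exceeded untreated obese muscle by 1.78 ± 0.26 (adjusted p = 0.00133, limma; 0.242% passed; 0.00303 without the filter, which the ligand arrays carried it past), pioglitazone by 1.85 ± 0.33 (0.0154; 0.231% passed), troglitazone by 2.10 ± 0.33 (0.00264; 0.704%) and AG035029 by 1.86 ± 0.33 (0.0220; 0.116%). Rosiglitazone did not pass (1.32 ± 0.33, 0.252; 0.0315%). The ligand arrays carried the probe set past the filter for these single ligands too, and the 3 calls were kept without the filter. With 1387109_at, untreated obese arrays read 265, 176 and 174 and ligand arrays 83.1 to 358 with a median of 243, which overlapped, and the ligand mean differed by 0.09 (95% interval -0.51 to 0.68, adjusted p = 0.978). Obese minus lean was -1.12 ± 0.33 and 0.13 ± 0.36 (0.650 and 0.997; 0.021% passed).

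The ligand mean of Por 1368213_at in muscle passed in all 27 alternatives that tested it (1.21 to 2.05), while the filter at the 60th percentile removed it. The single ligands depended more on the arrays. Pioglitazone was lost without obese replicate 3 (1.58) or pioglitazone replicate 1 (1.89) or 2 (1.66). AG035029 was lost without any 1 of its own replicates 1, 2 and 3 (1.90, 1.80 and 1.89) and without obese replicate 1 (2.03) or 3 (1.59). All 3 calls were lost in fits of only the arrays compared (adjusted p of 0.363, 0.186 and 0.459 for pioglitazone, troglitazone and AG035029).

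**Figure D3:**
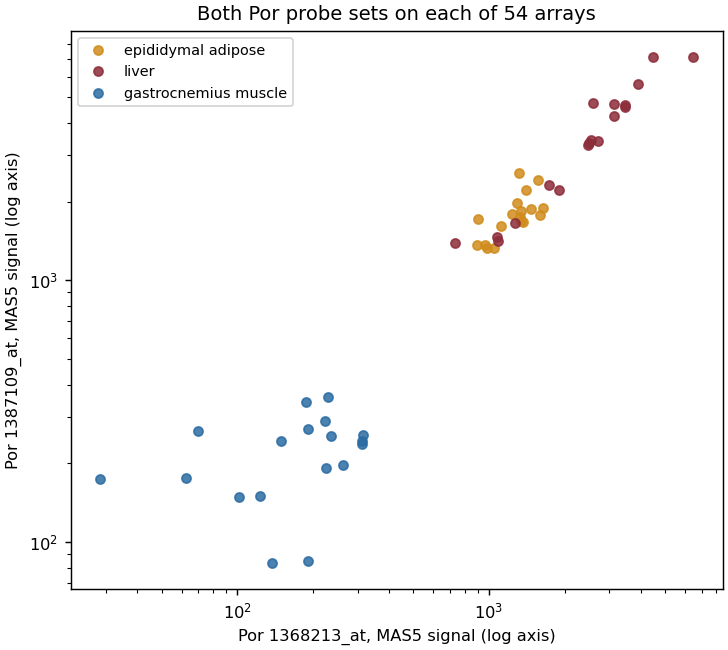
Signals of the 2 Por probe sets on each of 54 arrays, both axes logarithmic, coloured by tissue. Points of liver fall along a line (Pearson r on log2 values 0.971 over 18 arrays), those of adipose tissue less so (0.694) and those of muscle scatter (0.300).

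The summed signal of adipocyte markers was higher in the ligand groups of muscle. Of 8 listed markers 6 were on the array and none was at 0. The sum was 7259 to 7910 in lean and 6621 to 10462 in untreated obese muscle, against 16279 to 27439 with pioglitazone, 13240 to 19850 with rosiglitazone, 21536 to 36775 with troglitazone and 15412 to 26360 with AG035029. Fabp4, the fatty acid carrier of adipocytes, made up most of the rise (2537 to 5139 in untreated obese muscle, 7466 to 27776 over the ligand arrays). It was the 1 marker of 6 with every ligand array above every untreated obese one, where 0.704% of all probe sets had such groups apart. Cfd, the complement factor adipsin, read 439 to 617 in untreated obese muscle, 811 to 2373 with pioglitazone and 872 to 3522 with troglitazone, above untreated obese arrays, but 530 to 677 with rosiglitazone and 287 to 1997 with AG035029, which overlapped them. Lipe, the hormone-sensitive lipase, read 22.1 to 86.1 in untreated obese muscle, 282 to 708 with troglitazone and 89.5 to 232 with AG035029, and its pioglitazone (56.2 to 306) and rosiglitazone arrays (55.4 to 201) overlapped untreated obese ones. Leptin read 13.1 to 47.2 in untreated obese muscle, 15.9 to 147 with pioglitazone, 21.6 to 28.7 with rosiglitazone, 29.2 to 271 with troglitazone and 12.3 to 28.6 with AG035029. Plin1, the lipid droplet coat protein, ran from 103 to 205 in untreated obese muscle and from 93.7 to 398 over the ligand groups, and Slc2a4, the glucose transporter that muscle fibres also express, from 3288 to 4491 and from 3760 to 5984. The part of these markers in the Por values was not tested.

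**Figure D4:**
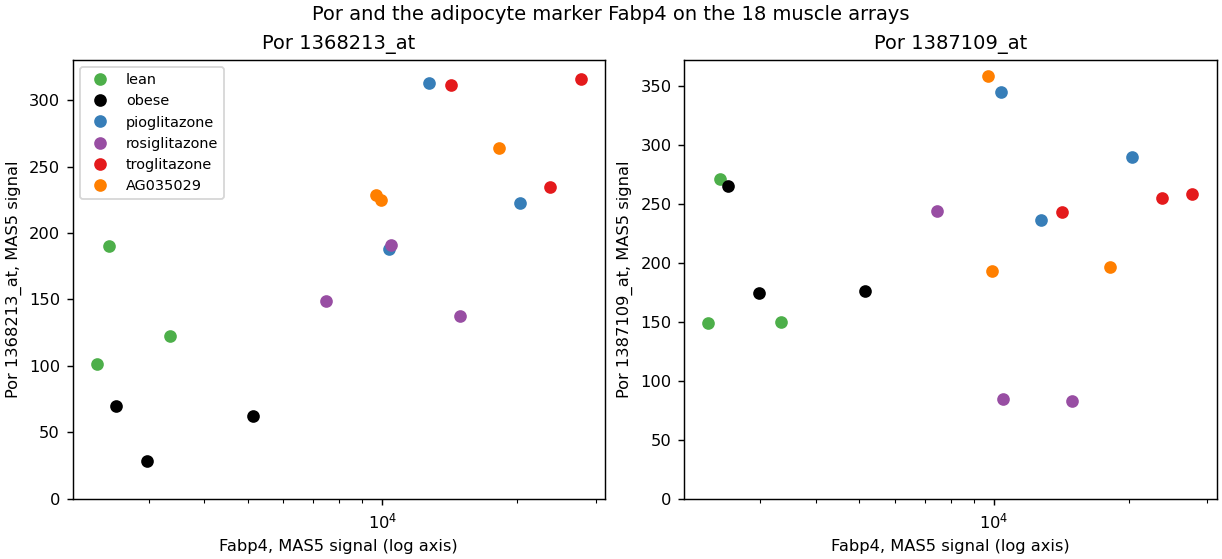
Por signal (linear axis from 0) against the signal of the adipocyte marker Fabp4 (log axis) on 18 muscle arrays, for 1368213_at (left) and 1387109_at (right), coloured by group. The ligand arrays sit at Fabp4 signals of 7466 to 27776, to the right of all lean and untreated obese arrays, and are higher in Por than untreated obese arrays in the left panel only.

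Tissue differences in the ligand response were tested for Por in a joint fit of all arrays, which treats the tissues as independent. Arrays of the same condition and number in different tissues had a mean residual correlation of 0.00648 over 54 pairs, and with such arrays as a random block the muscle and adipose difference given next had an adjusted p of 0.00455 (limma). With 1368213_at they passed (adjusted p = 0.0063, limma; 4.93% of 11520 probe sets passed), and the ligand effect in muscle exceeded that in adipose tissue by 1.41 ± 0.30 (0.00447). The first call was kept under all 66 alternatives (adjusted p from 2.86e-04 to 0.0438). The second was lost with a pseudocount of 80 (0.85, adjusted p = 0.0803) and without untreated obese replicate 3 of muscle (1.13, 0.054), and was kept under the other 46 of 48. Liver exceeded adipose tissue by 0.95 ± 0.30, which did not pass (0.0606). With 1387109_at the test gave 0.0554, with liver above muscle by 1.13 ± 0.33 (0.0941). Tissue differences in the obese minus lean effect did not pass for either (0.437 and 0.789; 0.868% passed).

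The P450 enzymes that Por serves were read from a list of 49 genes, of which 39 passed the filter in liver. Against untreated obese liver 2 rose and 1 fell for the ligand mean, where 0.494% of all probe sets passed, with a list median of 0.11 against -0.01 over all probe sets tested. At an unadjusted p under 0.05 it was 18 of 39, against 10.6% of all probe sets. Cyp1a2, which oxidises aromatic amines and caffeine, rose by 0.84 ± 0.18 (adjusted p = 0.0337, limma), Cyp3a18, of the steroid- and drug-oxidising family, by 1.04 ± 0.23 (0.0476), and Cyp2c22 fell by 0.69 (0.0444). For troglitazone 5 rose and 0 fell, where 0.662% of all probe sets passed, with a median of 0.23 against -0.02 and 14 of 39 at an unadjusted p under 0.05, against 9.96%. These were Cyp3a2 at 2.78 ± 0.53, Cyp3a18 at 1.56 ± 0.29, Cyp51, the lanosterol demethylase, at 1.22 ± 0.25, and Cyp2j4 at 0.91 ± 0.19 (0.0152, 0.0152, 0.0235 and 0.0245), with Cyp1a2 as the fifth. In obese against lean liver Cyp3a18 fell by 2.27 and Cyp3a2 fell by 2.99 (2.59e-04 and 0.00491), and 0 rose, where 0.672% of all probe sets passed. Cyp2c and Cyp3a members resemble each other in sequence, so their probe sets can share signal.

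**Figure D5:**
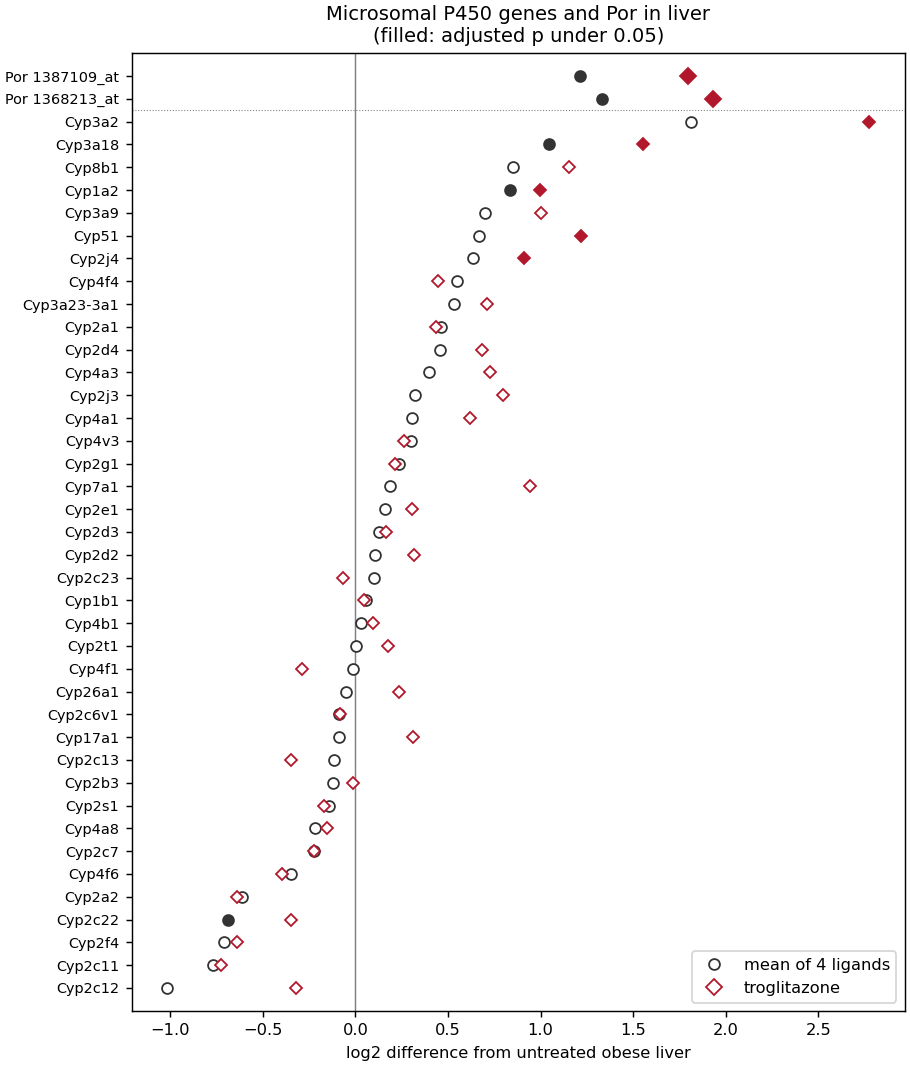
Log2 difference from untreated obese liver of 39 microsomal P450 genes and both Por probe sets (top), for the mean of 4 ligands (circles) and for troglitazone (diamonds); filled symbols passed an adjusted p of 0.05. The P450 genes spread from -1.02 to 1.81 for the ligand mean and from -0.73 to 2.78 for troglitazone, with Cyp3a2 under troglitazone as the highest value.

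Of 16 measured genes of microsomal electron transfer, which holds cytochrome b5, its reductase and desaturases, 0 passed in limma for the ligand mean in liver (list median 0.05; 4 at an unadjusted p under 0.05), and 0 of 11 NADPH suppliers did (-0.27; 7). None of 5 tested heme synthesis genes, 19 other flavoproteins or 17 regulators of xenobiotic enzyme genes passed (medians -0.02, -0.06 and -0.02; 0, 3 and 3 at an unadjusted p under 0.05). In this comparison 0.494% of all probe sets passed, and 10.6% had an unadjusted p under 0.05. With troglitazone, 1 of the 17 regulators rose, where 0.662% of all probe sets passed. It was Nr1i3, the constitutive androstane receptor, at 1.37 ± 0.28 (adjusted p = 0.0235, limma). In obese against lean liver the stearoyl-CoA desaturase gene Scd rose by 3.38 ± 0.50 and the squalene epoxidase gene Sqle fell by 2.61 (adjusted p = 7.29e-04 and 0.0377, limma), the 2 genes called among 16 of electron transfer, where 0.672% of all probe sets passed. Of the NADPH suppliers the malic enzyme gene Me1 rose by 1.59 ± 0.32 and Aldh1l1 by 1.04 ± 0.23.

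Over the 18 liver arrays, log2 signals of Fmo1 followed most closely those of Ces1d, a carboxylesterase (Pearson r 0.819), Ctsl, cathepsin L (0.814), and Nap1l1, a histone chaperone (0.813). Por (1387109_at) followed Cyp4a3, a fatty acid hydroxylase (0.918), Slc4a4, a bicarbonate cotransporter (0.898), and Decr2, a peroxisomal dienoyl-CoA reductase (0.892). Fmo1 and Por correlated with r = 0.617 in liver, -0.15 in adipose tissue and -0.01 in muscle. These arrays share tissue and group, so the values are descriptions.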

How the data were processed

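The deposited values are linear intensity values, MAS5 signals of Affymetrix Rat 230A arrays made by the authors (tool named in the submitters' processing notes, no version). Each array held RNA of 2 rats, per the labels' protocols. In the deposited values the mean after trimming 2% at each end was 500 on every array, and they were not rescaled here. Gene names came from the platform annotation (15866 probe sets besides controls). Signals were used as log2(signal + 20), and probe sets with a tissue mean above the 40th percentile were tested with limma 3.58.1 in R 4.3.3 (eBayes with trend, 18 arrays and 12 residual degrees of freedom per tissue; 11520 probe sets in the joint fit). The fits were tested on simulated data. Number-matched arrays had mean residual correlations of 0.0184, 0.00322 and 0.0117 (adipose, liver, muscle), and the numbers were not taken as pairs. Named genes were the members, up to 4 called genes per list and comparison by smallest adjusted p, and the 3 most alike genes per member. Cyp1a2 under troglitazone, Obp3, and Nnt and Idh2 in adipose tissue were named after their values were seen. Members and lists were chosen with earlier results of these data known. The alternatives without the arrays of actin ratio above 3 and with a random block across tissues were added after seeing the data. The 3 arrays per group limit the precision.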

Additional observations from a re-analysis of the deposited data

Results flagged for a closer look

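The effect of the ligands on Por, read with 1368213_at, differed between tissues by a test of the difference itself (adjusted p = 0.0063, limma, joint fit of 54 arrays): on the log2 scale it was 0.38 (adipose tissue), 1.33 (liver) and 1.78 (muscle). The other Por probe set gave 0.31, 1.22 and 0.09 and did not pass (0.0554). Of its parts for 1368213_at, the excess in muscle over adipose tissue (1.41) lost its call with a pseudocount of 80 (0.85, adjusted p = 0.0803) and without untreated obese replicate 3 of muscle (1.13, 0.054).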

How the results depend on the processing

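Besides leaving out single arrays, 12 alternatives were run. Of 18 counts of called values, 172 values under these alternatives were within 1.5 times the reported count and 19 were not. In adipose tissue the ligand mean count of 0 became 1 with array weights, the replicate block, quantile normalization, median centring and the filter at the 60th percentile; the obese minus lean count of 0 became 2 with array weights and 1 in fits of only the arrays compared; and the count of member and ligand pairs, 1, became 0 without a filter, 2 with the replicate block and 3 with array weights and with only the arrays compared. In liver the ligand mean count of 2 became 1 without the variance trend and 0 without the arrays of actin ratio above 3, and the pair count of 2 became 1 with only the arrays compared. In muscle the ligand mean count of 1 became 0 and the pair count of 3 became 0 with the filter at the 60th percentile, which removes both Por probe sets there, and the pair count became 0 with only the arrays compared. The count of tissue differences in the ligand effect, 1, became 2 with a pseudocount of 80 and the filter at the 60th percentile. The replicate block changed no other count by over 1.5 times.

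Leaving out single arrays gave 0 to 1 (obese minus lean, adipose tissue), 0 to 1 (ligand mean, adipose tissue), 0 to 3 (pairs, adipose tissue), 0 to 2 (ligand mean, liver), 2 to 8 (pairs, liver), 1 to 2 (ligand mean minus lean, liver), 1 to 3 (pairs, muscle) and 1 to 2 (tissue differences in the ligand effect).

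Values that passed in no setting compared, or were described without a test, changed sign in 9 results under alternatives and in 36 with single arrays left out, and 0 changed sign with a call. Under alternatives, Por 1387109_at in obesity effect, liver minus muscle, turned to 0.023 (pseudocount 80), 0.019 (median centring), 0.029 (array weights) and 0.21 (without arrays of high actin ratio), and Por 1368213_at in ligand effect, liver minus muscle, to 0.073 (pseudocount 80). Fmo1 turned to 0.045 and 0.043 (ligand mean, adipose tissue, quantile normalization and median centring), 0.034 and 0.019 (pioglitazone minus rosiglitazone, liver, quantile normalization and without arrays of high actin ratio) and 0.13 (the same pair, adipose tissue, array weights). Por 1368213_at turned to 0.026 and 0.018 (pioglitazone minus AG035029, muscle, quantile normalization and median centring), 0.022 (ligand mean minus lean, adipose tissue, median centring) and 0.24 (obese minus lean, liver, without arrays of high actin ratio). Por 1387109_at turned to 0.049 (troglitazone minus AG035029, adipose tissue, median centring).

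With single arrays left out in adipose tissue, Fmo1 ranged from -0.12 to 0.029 (ligand mean minus obese), -0.50 to 0.11 (rosiglitazone minus obese), -0.00064 to 0.13 (AG035029 minus obese), -0.33 to 0.28 (pioglitazone minus rosiglitazone) and -0.57 to 0.046 (rosiglitazone minus AG035029). Por 1387109_at ranged from -0.11 to 0.36 (rosiglitazone minus obese), -0.21 to 0.023 (ligand mean minus lean), -0.017 to 0.19 (pioglitazone minus AG035029), -0.41 to 0.059 (rosiglitazone minus troglitazone), -0.46 to 0.0083 (rosiglitazone minus AG035029) and -0.12 to 0.082 (troglitazone minus AG035029). Por 1368213_at ranged from -0.16 to 0.011 (ligand mean minus lean), -0.0044 to 0.40 (pioglitazone minus troglitazone), -0.40 to 0.0013 (rosiglitazone minus troglitazone) and -0.30 to 0.096 (troglitazone minus AG035029).

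In liver, Por obese minus lean ranged from -0.62 to 0.24 (1368213_at) and -0.28 to 0.34 (1387109_at), rosiglitazone minus AG035029 from -0.42 to 0.094 (1387109_at), and Fmo1 pioglitazone minus rosiglitazone from -0.10 to 0.10. In muscle, Por 1387109_at ranged from -0.057 to 0.39 (obese minus lean), -0.024 to 0.27 (ligand mean minus obese), -0.044 to 0.41 (AG035029 minus obese) and -0.075 to 0.34 (troglitazone minus AG035029), and Por 1368213_at from -0.20 to 0.14 (pioglitazone minus AG035029). Fmo1 in muscle ranged from -0.36 to 0.18 (ligand mean minus obese), -0.38 to 0.17 (rosiglitazone minus obese), -0.078 to 0.47 (troglitazone minus obese), -0.44 to 0.10 (AG035029 minus obese), -0.37 to 0.023 (pioglitazone minus rosiglitazone), -0.30 to 0.090 (pioglitazone minus AG035029) and -0.020 to 0.22 (rosiglitazone minus AG035029). Between tissues, Por 1368213_at ranged from -0.22 to 0.17 (lean liver minus adipose tissue), -0.16 to 0.70 (obesity effect, liver minus adipose tissue) and -0.83 to 0.031 (ligand effect, liver minus muscle), Por 1387109_at from -0.41 to 0.21 (obesity effect, liver minus muscle) and Fmo1 from -0.32 to 0.23 (ligand effect, muscle minus adipose tissue). The cause of these changes was not tested. Signals near the filter limit, such as Por 1368213_at in muscle, limit what low values show.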

Other observations

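Around Por in adipose tissue, 9 of the 49 P450 genes passed the filter, and 2 rose and 2 fell for the ligand mean against untreated obese rats, in a comparison in which 20.6% of all probe sets passed. Cyp1b1, an estrogen-oxidising P450, fell by 2.80 and Cyp4b1 rose by 1.62 ± 0.13 (adjusted p = 6.42e-08 and 1.48e-07, limma). Of 11 NADPH suppliers 5 rose and 2 fell. Pgd of the pentose phosphate pathway rose by 0.83 ± 0.10, and H6pd, its counterpart in the endoplasmic reticulum, by 0.84 ± 0.16. Me1 rose by 0.76 ± 0.15, and the 2 that fell were Nnt (-0.44 ± 0.13) and Idh2 (-0.37 ± 0.12). In muscle the ligand mean raised Scd by 3.15 ± 0.43 and Pparg, the receptor gene, by 2.01 ± 0.32 (adjusted p = 6.10e-04 and 0.00278, limma). Each was the 1 gene called in its list, of 13 and 9 tested genes, where 0.242% of all probe sets passed. Pparg had a mean of 43.6 in untreated obese muscle, below the filter limit of 139, and of 246 in ligand arrays. Its untreated obese arrays alone would not have passed the filter, and no fit without the filter is given for it. Its value is therefore a description. Against lean muscle Scd passed and 0 of the 9 regulators did, where 1.11% of all probe sets passed.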
